A study of Homo sapiens with 6 samples.

Results

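The 138 genes described here are the well-expressed ZNF genes of A549, a human lung adenocarcinoma cell line. They were chosen as all protein-coding genes named ZNF with a number and at most 1 further letter whose mean over 6 RNA-seq libraries was at least 3 FPKM (fragments scaled by gene length and by library size). Of 510 such ZNF genes listed among 58174 genes, 138 (27.1%) met this level, 219 were measured below it at a mean of at least 0.5 FPKM, and 153 were lower still, 58 of them listed at 0 in every library. PolyA RNA was sequenced from parental A549 cells, called Ctrl, and from A549 cells in which a part of the MIR21 gene had been removed with CRISPR/Cas9, called MIR21-KO, with 3 libraries per group. Cells of both groups were harvested 48 h after seeding. To obtain MIR21-KO cells, plasmids for Cas9 and for guide RNAs on either side of the deleted stretch were transfected and single cells were sorted by fluorescence, while Ctrl cells had not passed through a single cell. How many clones the MIR21-KO libraries represent is not given in the sources used here, so that the deletion and differences between clones cannot be told apart. The labels do not say whether the libraries of a group came from separate cultures, and p-values then measure only the spread between these libraries.

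Most ZNF proteins carry C2H2 zinc fingers, short folds in which a pair of cysteines and a pair of histidines hold a zinc ion, and tandem arrays of such fingers read out DNA sequence. Many of them also carry a KRAB box, which recruits the corepressor TRIM28 (KAP1) and through it the histone methyltransferase SETDB1, heterochromatin proteins of the HP1 type and histone deacetylases, and which is known for silencing transposable elements. The name ZNF is not a functional class, however, and also covers activators, ribosome factors and RNA-binding proteins. miR-21-5p, the main product of MIR21, lowers mRNAs that pair with its seed, the bases at positions 2 to 8 counted from its 5′ end.

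The sequence of miR-21-5p (RefSeq, GRCh38.p14) is printed below with its seed in capitals, followed by sites from the 3′ UTRs of 3 of the ZNF genes. The 3 sites of ZNF367 are shown because ZNF367 held more of them than any other gene of the 138 and was the only site-bearing gene called in the comparison of MIR21-KO with Ctrl. The sites of ZNF207 and ZNF592 are shown because they have the same 8 matching letters but sit in genes with lower values in MIR21-KO. Neither of these genes was called. Not printed are a further site of ZNF207 with 7 matching letters and the sites of ZNF576 and ZNF839. Both of these genes also hold the 8 letters and had a log2 difference of 0.07. All are written 5′ to 3′ on the sense strand of the transcript, from GENCODE 29 transcripts (GRCh38), and capitals mark the letters that match the seed (ATAAGCT) and, where present, the A that follows it.
hsa-miR-21-5p: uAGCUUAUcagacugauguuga
ZNF367, first site, chr9:96388162-96388183, minus strand: gtagatccttgggcATAAGCTA
ZNF367, second site, chr9:96386512-96386533, minus strand: aatttggagcacttATAAGCTg
ZNF367, last site, chr9:96386144-96386165, minus strand: atgttctttttgatATAAGCTA
ZNF207, chr17:32378412-32378433, plus strand: aatggtgtacagtcATAAGCTA
ZNF592, chr15:84805550-84805571, plus strand: tatgctgaattattATAAGCTA

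Between 10631667 and 14345209 reads were recovered per library from the deposited FPKM. For the 138 genes this gave at least 69 and at most 3000 reads per gene and library, with a median of 254 reads in the library where a gene was lowest. MIR21 itself was listed at 0 in all 6 libraries, so that the targeted gene gave no check of the labels. VMP1, the gene in which MIR21 lies, had 75.1 ± 3.83 FPKM in Ctrl and 143 ± 7.18 FPKM in MIR21-KO (SD, n = 3). The 5 epithelial markers EPCAM, KRT8, KRT18, KRT19 and CDH1 all had a mean of at least 0.5 FPKM, but their summed level was 1194 to 1288 FPKM in Ctrl and 776 to 1106 FPKM in MIR21-KO, without overlap. Of these, CDH1 (E-cadherin) fell by 1.48 on the log2 scale, from 8.18 to 2.86 FPKM (limma FDR 0.000175), and KRT18 and EPCAM, which were not called, had log2 differences of -0.69 and -0.68. EPCAM was low, with a mean of 0.943 FPKM and overlapping groups. KRT8 had a log2 difference of -0.23 (limma FDR 0.207) and KRT19 went the other way with 0.29 (limma FDR 0.206), and neither was called. Most of the sum came from KRT8 and KRT18, with means of 449 and 548 FPKM. The part of this epithelial marker difference in the values of the ZNF genes was not tested. The lung lineage markers SFTPB and SFTPC summed to at most 0.0996 FPKM. Of 5 markers of blood, endothelial and stromal cells, COL1A1 alone reached a mean of 0.5 FPKM, and the defining markers PTPRC, PECAM1, COL1A2 and DCN were at or near 0. The summed level of these 5 markers was 3.30 to 3.62 FPKM in Ctrl and 3.35 to 4.55 FPKM in MIR21-KO. In bulk RNA, fewer cells of a kind and less RNA per cell cannot be told apart.

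The levels of the 138 genes were modest. Their mean over the 6 libraries had a median of 5.20 FPKM and reached 49.5 FPKM, compared with a median of 9.34 FPKM for all 9721 genes that met the same level. 66 of the 138 genes lay between 3 and 5 FPKM, and 25 exceeded 10 FPKM. Added up, the 138 genes had 997, 1006 and 1009 FPKM in Ctrl and 1125, 1075 and 1007 FPKM in MIR21-KO, so that the ranges of both groups overlapped. The genes closest to the level of 3 FPKM show how the choice depended on the groups. Just inside were ZNF621 with a mean of 3.04 FPKM and ZNF697 with 3.07 FPKM, and just outside were ZNF331 with 2.97 FPKM and ZNF789 with 2.95 FPKM. ZNF331 had 3.65, 3.15 and 3.98 FPKM in Ctrl but 2.17, 2.42 and 2.43 FPKM in MIR21-KO, and thus would have been a member by its Ctrl values. In total, 10 of the 138 genes had a Ctrl mean below 3 FPKM and 6 had a MIR21-KO mean below it, and the remaining 122 met the level in both groups. From annotated start to end, introns included, 87 of the 138 genes overlap at least 1 other annotated gene on either strand. Whether their exons overlap was not examined. Where exons do, reads may have been assigned to either gene.

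**Figure D1:**
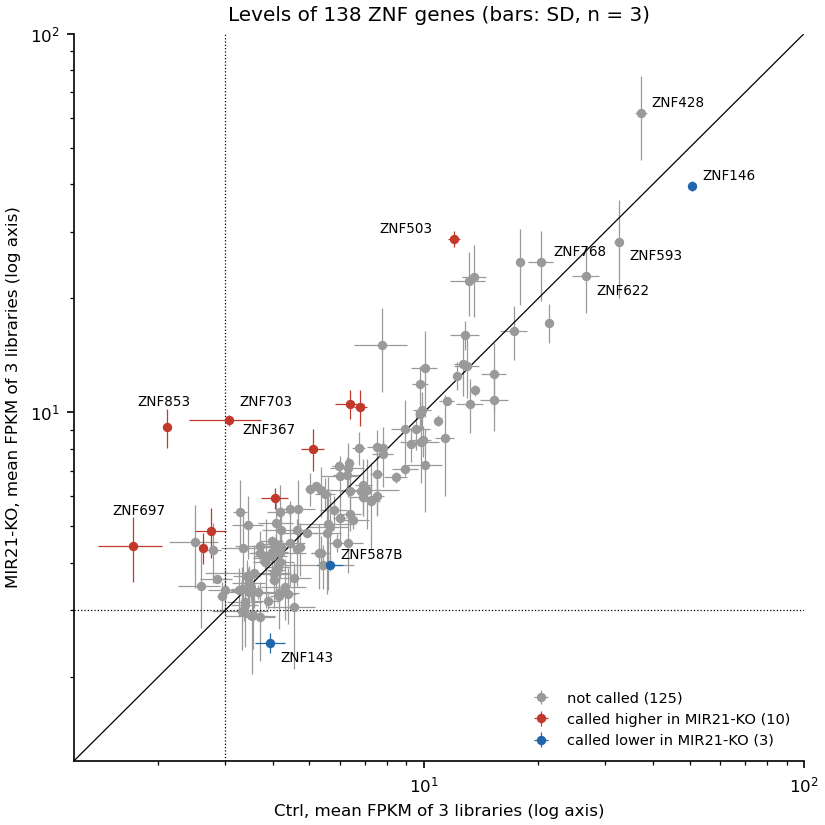
Mean FPKM of the 138 ZNF genes in MIR21-KO (vertical, log axis) against Ctrl (horizontal, log axis), with SD over 3 libraries as bars, the line of equal levels and dotted lines at 3 FPKM. The 10 genes called higher lie above the line, with ZNF853, ZNF697, ZNF469 and ZNF84 to the left of the dotted line at 3 FPKM, and ZNF143 is the called gene that falls below 3 FPKM in MIR21-KO.

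The first question was which of these genes differed between MIR21-KO and Ctrl. At an FDR under 0.01 (limma on log2(FPKM + 0.1), two-sided, adjusted over all 16006 genes tested), 13 of the 138 genes were called, 10 higher and 3 lower in MIR21-KO. This is 9.42% of the genes, compared with 16.0% of all genes tested and 20.7% of the 9721 tested genes at or above 3 FPKM. Of all genes tested, 7.66% were called higher and 8.38% lower. ZNF853, ZNF703, ZNF697, ZNF503, ZNF469, ZNF84, ZNF362, ZNF367, ZNF302 and ZNF710 rose, and ZNF143, ZNF587B and ZNF146 fell. The median log2 difference of the 138 genes was -0.01, and that of all genes tested was -0.02, with 69 of the 138 values above 0 and 69 below. Differences of at least 1 on the log2 scale, that is of 2-fold, were seen for 4 of the 138 genes (2.90%), all higher in MIR21-KO, compared with 11.7% of all genes tested and 6.81% of those with at least 3 FPKM. The quartiles of the log2 difference were -0.24 and 0.23 for the 138 genes and -0.35 and 0.24 for all genes of at least 3 FPKM. The values of both groups did not overlap for 56 of the 138 genes (40.6%), 32 higher and 24 lower, compared with 48.1% of all genes tested.

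The level that defined the members had a part in this count. ZNF853, ZNF697, ZNF469 and ZNF84, which rose, had Ctrl means below 3 FPKM and entered through MIR21-KO, and ZNF143, which fell, entered through Ctrl. Among the 122 genes that met the level in both groups, 8 were called, 6 higher and 2 lower. Of the 9721 tested genes at or above 3 FPKM, 20.7% were called. These were chosen by the mean of all 6 libraries and did not have to meet the level in both groups. The sets are therefore not alike, and a share of all genes that met the level in both groups is not given here. Without the level, 17 of all 357 ZNF genes tested were called (4.76%, compared with 16.0% of all genes tested), 14 higher and 3 lower. Their median log2 difference over all 357 genes was 0.04. The 4 called genes below 3 FPKM were ZNF862, ZNF467, ZNF821 and ZNF181, named here after their values were seen, and all 4 were higher in MIR21-KO.

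**Figure D2:**
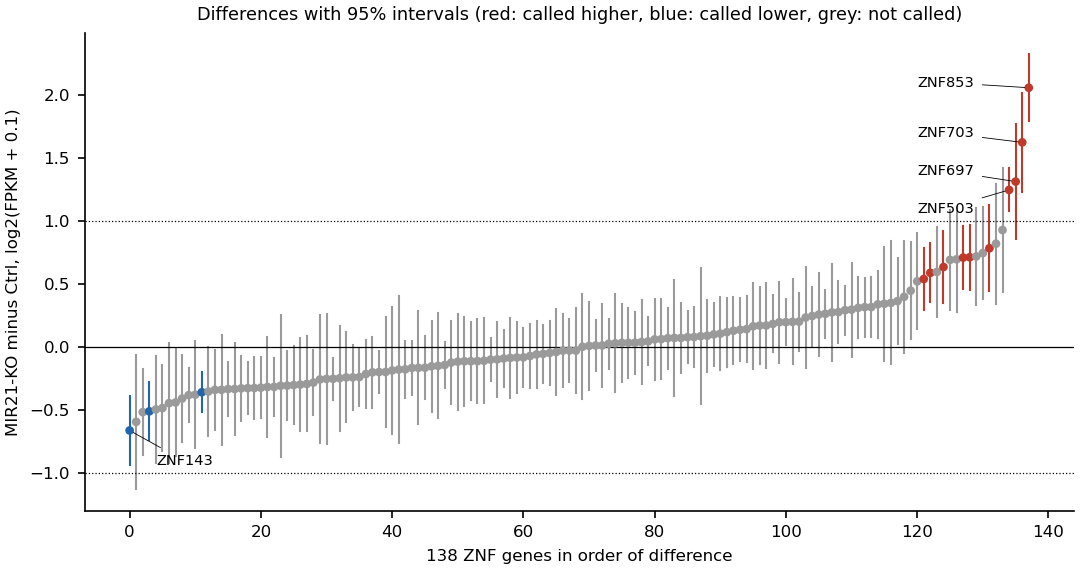
Difference between MIR21-KO and Ctrl in log2(FPKM + 0.1) for each of the 138 ZNF genes in rising order, with 95% intervals from limma and dotted lines at a 2-fold difference. The 4 genes beyond 1 are ZNF853, ZNF703, ZNF697 and ZNF503, and none of the 138 genes has a difference below -1.

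ZNF853 on chromosome 7 (6615617 to 6624290, plus strand, GRCh38 as for all positions given) showed the largest difference of the 138 genes. It had 2.12, 2.12 and 2.09 FPKM in Ctrl and 10.3, 8.85 and 8.24 FPKM in MIR21-KO. The lowest MIR21-KO library was thus far above all 3 Ctrl libraries, which hardly differed from each other. ZNF853 rose by a log2 fold change of 2.06 (SE 0.11, limma FDR 9.07e-05), a ratio of mean FPKM of 4.34. The predicted protein has 659 residues with 5 C2H2 motifs and no KRAB box. The other genes of the 138 nearby had smaller differences, and genes of other names in the region were not examined. ZNF316, which lies 13.0 kb away, had a log2 difference of 0.12 (95% interval from limma -0.15 to 0.39), and ZNF12, 64.1 kb away, one of 0.00 (95% interval from limma -0.41 to 0.42).

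ZNF703 and ZNF503 are paralogs of the NET family, corepressors whose C2H2 finger is atypical. Neither matched the C2H2 pattern used here. ZNF703, on chromosome 8, is known as an amplified oncogene of luminal breast cancer, and ZNF503, on chromosome 10, is known from the developing striatum. ZNF703 had 3.26, 2.33 and 3.62 FPKM in Ctrl and 9.84, 9.59 and 9.18 FPKM in MIR21-KO. The Ctrl libraries differed more from each other than the MIR21-KO libraries did, but the groups stayed far apart. ZNF703 rose by a log2 fold change of 1.63 (SE 0.16, limma FDR 0.000855). ZNF503 (chromosome 10, 75397830 to 75401906, minus strand) had 11.7, 12.5 and 11.8 FPKM in Ctrl and 29.6, 29.3 and 27.1 FPKM in MIR21-KO, with little spread within either group. Its log2 fold change was 1.25 (SE 0.07, limma FDR 0.000115). ZNF503 shares bases with the antisense gene ZNF503-AS2, which had a log2 difference of 0.64 (limma FDR 0.060) at a mean of 3.04 FPKM. The strand setting used for counting is not given in the sources used here. ZNF853, ZNF703 and ZNF503 were called under each of the 19 alternative settings.

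ZNF697 (chromosome 1, 119619422 to 119647773, minus strand) had 2.09, 1.46 and 1.61 FPKM in Ctrl and 3.98, 3.89 and 5.41 FPKM in MIR21-KO. Replicate 3 of MIR21-KO was highest, and the remaining MIR21-KO libraries were still above every Ctrl library. ZNF697 rose by a log2 fold change of 1.31 (SE 0.19, limma FDR 0.00324), and its predicted protein has 11 C2H2 motifs without a KRAB box. ZNF362 (chromosome 1, 33256545 to 33300719, plus strand), a paralog of the transcription factor ZNF384, had 5.83, 6.92 and 6.43 FPKM in Ctrl and 10.9, 11.3 and 9.47 FPKM in MIR21-KO. The groups did not overlap, and the log2 fold change was 0.71 (SE 0.11, limma FDR 0.00351). For ZNF384 itself the values were 11.98, 11.5 and 11.0 FPKM in Ctrl and 10.9, 10.8 and 10.6 FPKM in MIR21-KO. Its log2 difference of -0.10 was not called (95% interval from limma -0.27 to 0.07).

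ZNF469 (chromosome 16, 88427471 to 88440757, plus strand), which is mutated in brittle cornea syndrome and encodes a protein of 3953 residues, had 3.02, 2.50 and 2.77 FPKM in Ctrl and 4.13, 4.84 and 5.59 FPKM in MIR21-KO. All MIR21-KO libraries were above Ctrl but spread over a wider range. The log2 fold change was 0.79 (SE 0.14, limma FDR 0.00746). ZNF710 (chromosome 15, 90001392 to 90082206, plus strand), named after its value was seen, had 4.28, 3.67 and 4.19 FPKM in Ctrl and 5.81, 6.37 and 5.62 FPKM in MIR21-KO. It rose by a log2 fold change of 0.54 (SE 0.10, limma FDR 0.00879), close to the threshold. ZNF710 overlaps an annotated antisense gene.

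Among the genes with a KRAB box, ZNF84 and ZNF302 rose and ZNF587B fell. ZNF84 (chromosome 12, 133037292 to 133063304, plus strand), with 19 C2H2 motifs, had 2.62, 2.62 and 2.63 FPKM in Ctrl and 3.93, 4.48 and 4.73 FPKM in MIR21-KO. The Ctrl libraries were nearly identical, and the lowest MIR21-KO library was well above them. ZNF84 rose by a log2 fold change of 0.71 (SE 0.11, limma FDR 0.00385). ZNF302 (chromosome 19, 34677639 to 34686397, plus strand), with 7 C2H2 motifs and named after its value was seen, had 7.10, 6.60 and 6.73 FPKM in Ctrl and 9.55, 9.85 and 11.6 FPKM in MIR21-KO. Its log2 fold change was 0.59 (SE 0.10, limma FDR 0.00532), and the groups did not overlap. ZNF587B (chromosome 19, 57819741 to 57846238, plus strand) had 5.81, 6.03 and 5.17 FPKM in Ctrl and 3.99, 3.84 and 4.03 FPKM in MIR21-KO. It fell by 0.51 on the log2 scale (SE 0.10, limma FDR 0.00863). The value of ZNF587B is uncertain, since the gene has a close copy, ZNF587, at a distance of 3.6 kb and overlaps a further protein-coding gene on the same strand, and the treatment of shared reads is not given in the sources used here. ZNF587 had a log2 difference of -0.11 (95% interval from limma -0.42 to 0.20).

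ZNF143 and ZNF146 were the other genes that fell. ZNF143 (chromosome 11, 9460319 to 9528524, plus strand) is a transcriptional activator that binds promoters of protein-coding and small RNA genes. It had 3.71, 3.78 and 4.35 FPKM in Ctrl and 2.46, 2.61 and 2.31 FPKM in MIR21-KO. Every MIR21-KO library was below every Ctrl library, and ZNF143 fell by 0.66 on the log2 scale (SE 0.12, limma FDR 0.00636). ZNF143 overlaps an annotated antisense gene with a mean of 3.46 FPKM. ZNF146 (chromosome 19, 36214602 to 36238774, plus strand) consists almost entirely of zinc fingers, with 10 C2H2 motifs in 292 residues. It was the second most abundant of the 138 genes, with 51.7, 51.3 and 49.2 FPKM in Ctrl and 38.2, 39.9 and 40.8 FPKM in MIR21-KO. Both groups were tight, and ZNF146 fell by 0.36 on the log2 scale (SE 0.07, limma FDR 0.00836). ZNF146 lies within ZNF565 on the opposite strand, which had a mean of 1.26 FPKM.

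**Figure D3:**
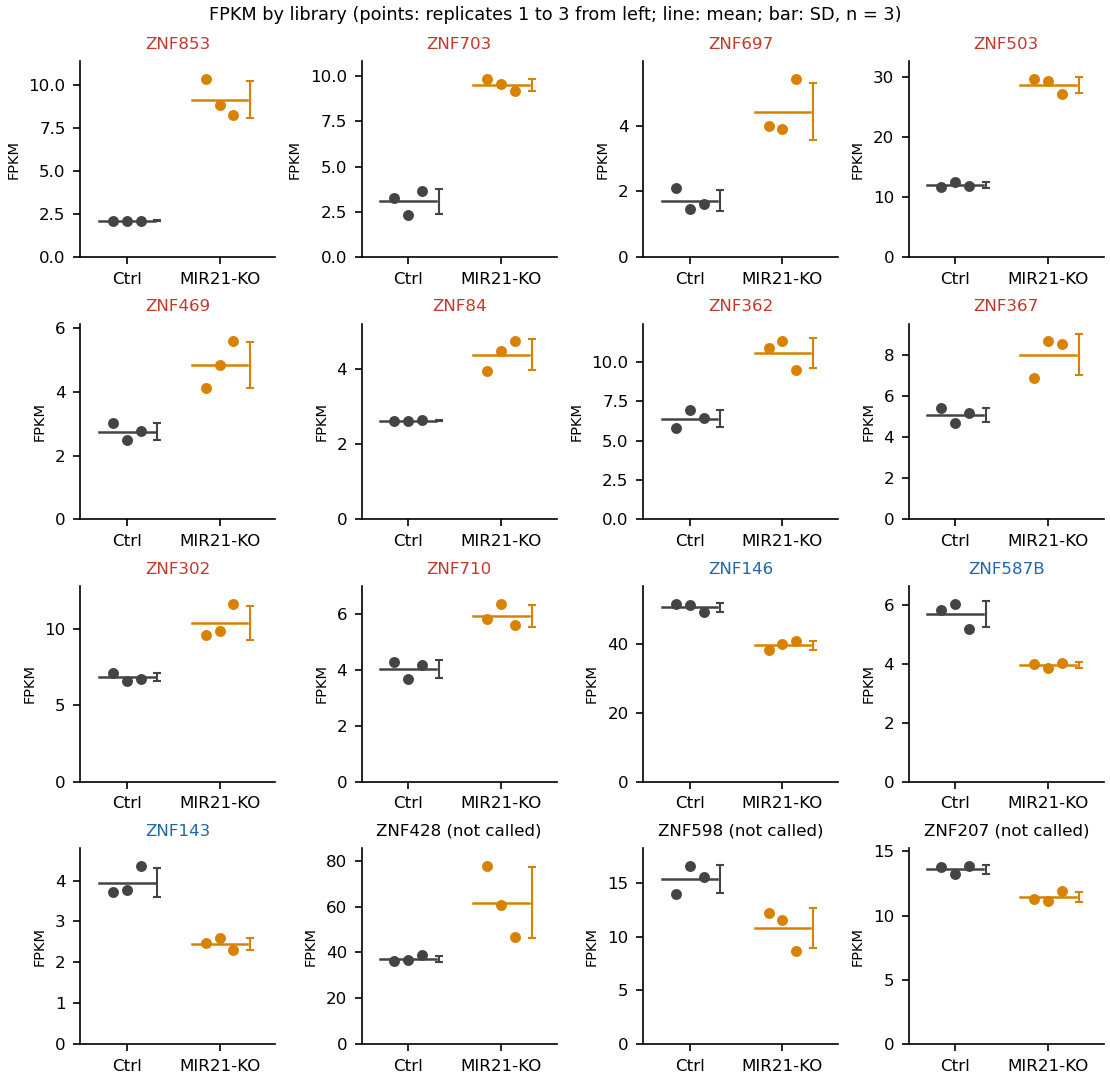
FPKM in each library for the 13 called genes (titles in red for higher and blue for lower in MIR21-KO) and for ZNF428, ZNF598 and ZNF207, which were not called. Points are replicates 1 to 3 from left to right, lines are means and bars are SD (n = 3), and no Ctrl value overlaps a MIR21-KO value in any of the 16 panels.

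The calls depended on single libraries. When a library was left out, 3 to 23 of the 138 genes were called. Without Ctrl replicate 1, 2 or 3 the count was 4, 3 and 3, and without replicate 1, 2 or 3 of MIR21-KO it was 10, 3 and 23. ZNF853, ZNF703 and ZNF503 were called in all 6 of these fits. ZNF697 was lost without Ctrl replicate 2 or 3 or MIR21-KO replicate 2, and ZNF84 and ZNF362 were lost without any 1 of the Ctrl libraries or without MIR21-KO replicate 2. Each of the other 7 called genes was lost without at least 4 of the 6 libraries in turn. Over all genes tested, between 784 and 3418 were called when a library was left out, compared with 2568 with all 6, and of the 357 ZNF genes 4 to 31 were.

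125 of the 138 genes were not called, which does not show that they were equal. For 118 of these, the 95% interval of the log2 difference lay within -1 and 1, and for 61 within -0.5 and 0.5. The intervals of the 138 genes reached 0.16 to 0.58 to either side, with a median of 0.31. At an unadjusted p under 0.05, 51 of the 138 genes (37.0%) differed, 29 higher and 22 lower, compared with 43.2% of all genes tested.

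ZNF428 (chromosome 19, 43607219 to 43619874, minus strand) was the most abundant of the 138 genes and illustrates how the MIR21-KO libraries differed among themselves. It had 36.1, 36.9 and 38.7 FPKM in Ctrl and 77.6, 60.6 and 46.9 FPKM in MIR21-KO. All MIR21-KO libraries were above Ctrl, but replicate 1 was far above replicate 3. The log2 difference of 0.70 (SE 0.17) was not called (limma FDR 0.0234). ZNF358, ZNF581 and ZNF446, named after their values were seen, ran in the same order in MIR21-KO. ZNF358 had 18.98, 14.9 and 11.4 FPKM in MIR21-KO replicates 1, 2 and 3 and at most 8.55 FPKM in Ctrl. ZNF581 had 27.8, 22.7 and 17.9 FPKM in MIR21-KO and at most 14.2 FPKM in Ctrl. ZNF446 had 6.59, 5.53 and 4.24 FPKM in MIR21-KO and at most 3.42 FPKM in Ctrl. None of these 3 genes was called, with limma FDRs of 0.0151, 0.0155 and 0.0199. On the recovered reads, voom called 18 of the 138 genes (13.0%, compared with 21.8% of all genes tested), 15 higher and 3 lower, with ZNF428, ZNF358, ZNF581 and ZNF446 among them. ZNF428 overlaps the protein-coding gene SRRM5 on the opposite strand, which had a mean of 3.01 FPKM.

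This order went along with base composition. Of the 51 genes whose longest transcript had a GC content of at least 55%, 47 were higher in MIR21-KO replicate 1 than in replicate 3, by a median of 0.32 on the log2 scale. Of the 31 genes with less than 42% GC, 26 were lower in replicate 1 than in replicate 3, with a median difference of -0.45. Over all 138 genes, Pearson's r between GC content and the log2 difference of MIR21-KO replicates 1 and 3 was 0.67 (Spearman's rho 0.69), as against -0.24 (rho -0.22) for Ctrl replicates 1 and 3. These coefficients are descriptions across genes that share the same libraries, and genes are not independent replicates. Over all genes tested with a GC content, r was 0.28 for MIR21-KO replicates 1 and 3. The median SD of log2(FPKM + 0.1) over the 138 genes was 0.17 within MIR21-KO and 0.11 within Ctrl. When each library was corrected for its trends on GC content and length, 28 of the 138 genes were called (20.3%), 20 higher and 8 lower, compared with 24.7% of all genes tested. 11 of the 13 calls were among them, and ZNF469 and ZNF710 were lost. ZNF428 was then called at a log2 fold change of 0.55 (limma FDR 0.00122). The part of base composition in the differences between the groups was not tested beyond this.

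**Figure D4:**
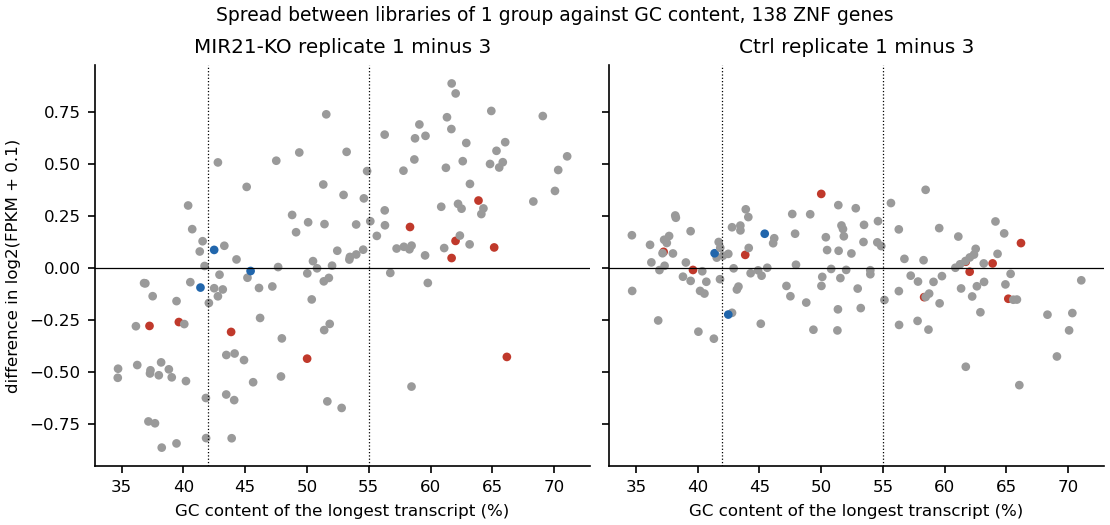
Difference in log2(FPKM + 0.1) between replicates 1 and 3 of MIR21-KO (left) and of Ctrl (right) against the GC content of the longest transcript, for the 138 ZNF genes. Red and blue points are genes called higher and lower in MIR21-KO, and dotted lines mark 42% and 55% GC. On the left 47 of the 51 genes right of 55% lie above 0 and 26 of the 31 genes left of 42% lie below 0.

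The genes were next described by their known roles, from lists written from general knowledge. Of 6 genes with roles at the ribosome or on RNA, none was called by limma or by voom, a variant of limma for reads. Of all genes tested, limma called 16.0% and voom 21.8%. An unadjusted p under 0.05 (limma) was seen for 2 of the 6 genes, compared with 43.2% of all genes tested. The list is too short to read anything from these counts. Log2 differences were above 0 for 2 of the 6 genes and below for 4, with a median of -0.24. ZNF598, a ubiquitin ligase that senses collided ribosomes, had 13.9, 16.5 and 15.5 FPKM in Ctrl and 12.2, 11.5 and 8.68 FPKM in MIR21-KO. All MIR21-KO libraries were below Ctrl, with a log2 difference of -0.51 (SE 0.14, limma FDR 0.0339), and with these trends removed ZNF598 was called at -0.65 (limma FDR 0.000528). ZNF593 and ZNF622, factors of the large ribosomal subunit, were among the 5 most abundant genes. ZNF593 had 32.7, 33.4 and 31.6 FPKM in Ctrl and 33.8, 32.1 and 18.8 FPKM in MIR21-KO, where replicate 3 alone was low. Its difference of -0.25 had a 95% interval from -0.76 to 0.26 in limma. ZNF622 had 24.2, 28.2 and 27.7 FPKM in Ctrl and 28.04, 21.6 and 19.01 FPKM in MIR21-KO, and the groups overlapped. ZNF326, part of a complex that links transcription elongation and splicing, had a log2 difference of -0.33 (limma FDR 0.0614). ZNF638 and ZNF346, which bind nucleic acids, had log2 differences of 0.05 and 0.13 with limma FDRs of 0.689 and 0.406. ZNF207 (BuGZ), a kinetochore and spindle protein, had 13.8, 13.2 and 13.9 FPKM in Ctrl and 11.3, 11.1 and 11.9 FPKM in MIR21-KO. The groups did not overlap, and the log2 difference of -0.25 (SE 0.07) was not called (limma FDR 0.0331). With these trends removed, the difference of ZNF207 was smaller, at -0.10 (limma FDR 0.649).

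Of 9 chromatin-associated factors and activators among the 138 genes, ZNF503 and ZNF703 rose, ZNF143 fell, and 6 were not called. The share of calls was 33.3%, compared with 16.0% of all genes tested, and the list is too short to read anything from it. The 6 genes that were not called had log2 differences from -0.44 to -0.10, with limma FDRs of 0.108 to 0.338. ZNF281, a regulator known from pluripotency and epithelial-mesenchymal transition, had 11.4, 11.97 and 10.7 FPKM in Ctrl and 6.43, 7.84 and 11.4 FPKM in MIR21-KO. Replicate 3 of MIR21-KO lay within the range of Ctrl, and the 95% interval of the log2 difference of -0.44 was -0.92 to 0.03 in limma. ZNF217, an oncogene of breast cancer that works with corepressors, had 16.1, 15.7 and 13.98 FPKM in Ctrl and 9.88, 12.9 and 15.1 FPKM in MIR21-KO, again with replicate 3 within Ctrl. ZNF644, a partner of the histone methyltransferases EHMT1 and EHMT2, had a log2 difference of -0.35 (limma FDR 0.118). ZNF592 and ZNF687, which share a complex, had differences of -0.24 and -0.14 with limma FDRs of 0.108 and 0.210. ZNF768, the fifth most abundant gene, is in none of these lists and had 18.6, 20.6 and 21.6 FPKM in Ctrl and 28.9, 26.9 and 19.02 FPKM in MIR21-KO, with overlapping groups.

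Of the KRAB repressors on the list, 3 were among the 138 genes, none was called by limma or by voom, and 1 had an unadjusted p under 0.05. For comparison, limma called 16.0% of all genes tested and voom 21.8%, and 43.2% had an unadjusted p under 0.05. From 3 genes nothing can be read. ZNF274, which guides SETDB1 to the ends of other ZNF genes, had 3.53, 4.05 and 4.06 FPKM in Ctrl and 3.03, 3.32 and 3.17 FPKM in MIR21-KO. The groups did not overlap, and the log2 difference was -0.28 (SE 0.11, limma FDR 0.0921). ZNF202, a repressor of lipid genes, had a log2 difference of -0.16 (95% interval from limma -0.41 to 0.09). ZNF746 (PARIS), a repressor that is a substrate of parkin, had one of 0.09 (95% interval from limma -0.19 to 0.38).

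The proteins predicted from the longest annotated coding sequence (GENCODE 29) separated the genes into further groups, which are described without a test. A KRAB box was found in 49 of the 138 genes (35.5%), compared with 330 of 508 listed ZNF genes that had a protein (65.0%). Of the 49 genes, 3 were called, 2 higher and 1 lower, with a median log2 difference of 0.00 and a range from -0.51 to 0.82. Of the 89 genes without a KRAB box, 10 were called, 8 higher and 2 lower, with a median of -0.03 and a range from -0.66 to 2.06. These are 6.12% and 11.2% of the genes, as against 16.0% of all genes tested. With the trends on GC content and length removed, 18.4% (8 higher, 1 lower) and 21.3% (12 higher, 7 lower) were called. In that fit, 24.7% of all genes tested were called. Of the 138 genes, all 4 that differed at least 2-fold were without a KRAB box, but ZNF853 and ZNF697 met the level only through MIR21-KO. Below 3 FPKM, ZNF862, ZNF599 and ZNF554 had a KRAB box and log2 differences of 1.56, 1.08 and 1.06. ZNF467 and ZNF117, also below this level, had no KRAB box and log2 differences of 1.27 and 1.26. Of these, ZNF862 and ZNF467 were called, and all were named after their values were seen. The number of C2H2 motifs ranged from 0 to 31 with a median of 8. Among genes with 0 to 3, 4 to 9 and 10 or more motifs, 3 of 30, 5 of 53 and 5 of 55 were called, with median log2 differences of 0.07, -0.03 and -0.07. These calls are 10.0%, 9.43% and 9.09% of the genes, as against 16.0% of all genes tested. Chromosome 19, which carries the large ZNF clusters, held 38 of the 138 genes (27.5%), compared with 48.2% of all listed ZNF genes and 6.89% of all genes tested. Of these 38 genes ZNF302 rose and ZNF587B and ZNF146 fell, and the median log2 difference was -0.05, as against 0.01 for the 100 genes on other chromosomes. The 3 calls are 7.89% of the 38 genes, compared with 16.0% of all genes tested. With the trends removed, 11 of the 38 genes were called (28.9%, 7 higher, 4 lower), compared with 24.7% of all genes tested. The medians of all these groups lay between -0.07 and 0.07, close to that of all genes tested.

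**Figure D5:**
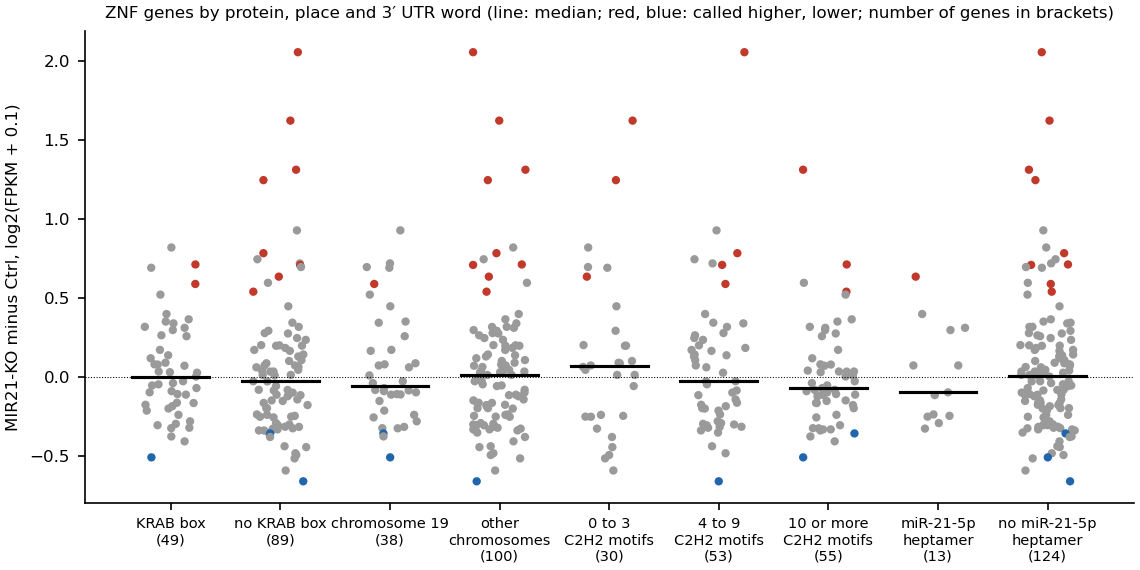
Difference between MIR21-KO and Ctrl in log2(FPKM + 0.1) for the ZNF genes grouped by KRAB box, chromosome 19, number of C2H2 motifs and a miR-21-5p heptamer in the 3′ UTR. Each point is a gene, red and blue for called higher and lower, and lines are medians. Among these genes of at least 3 FPKM, the 4 above 1 are all without a KRAB box and not on chromosome 19.

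In the longest annotated 3′ UTR, the heptamer ATAAGCT, searched on the sense strand, was found in 13 of 137 genes (9.49%), compared with 9.88% of 11644 protein-coding genes tested. The longer word ATAAGCTA, which contains the heptamer, was found in 5 of the 137 genes (3.65%), compared with 2.87%. The 13 genes held 18 heptamers in all, of which ZNF367 held 3, and ZNF207, ZNF326 and ZNF621 held a pair each. A match is a description of these letters and not a proof of pairing in cells, and the UTR that A549 cells use may be shorter than the longest one. Of the 13 genes, ZNF367 was called, 6 had values above 0 and 7 below, and the median log2 difference was -0.10, as against 0.01 for the 124 genes without the heptamer. The order of these medians turned when the trends on GC content and length were removed, to 0.04 with and -0.03 without the heptamer. The 1 call among the 13 genes (7.69%) compares with 16.0% of all genes tested. ZNF367 (chromosome 9, 96385941 to 96418329, minus strand) had 5.41, 4.72 and 5.17 FPKM in Ctrl and 6.86, 8.67 and 8.52 FPKM in MIR21-KO. All MIR21-KO libraries were above Ctrl, and ZNF367 rose by a log2 fold change of 0.64 (SE 0.12, limma FDR 0.00819). Without MIR21-KO replicate 2 or 3, or without any 1 of the Ctrl libraries, ZNF367 was not called. The other genes with the longer word were ZNF592 and ZNF207, with the negative values given above, and ZNF576 and ZNF839, each with a log2 difference of 0.07. ZNF621, with a pair of heptamers, had 2.95, 2.33 and 2.48 FPKM in Ctrl and 2.73, 3.42 and 4.30 FPKM in MIR21-KO, and the groups overlapped. With each library's trends on GC content and length removed, ZNF189, with 1 heptamer, was called as well, at a log2 fold change of 0.42 (limma FDR 0.00877).

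Finally, TRIM28 and further genes of repressive chromatin were examined with a list of 30 genes written from general knowledge. The list is wider than the proteins named above that a KRAB box recruits. All 30 were tested, 5 were called (16.7%, compared with 16.0% of all genes tested), and all 5 were lower in MIR21-KO. Of all genes tested, 8.38% were called lower and 7.66% higher. 6 of the 30 log2 differences were above 0 and 24 below, with a median of -0.22. The median was -0.02 for all genes tested and -0.07 for those with at least 3 FPKM. The 5 genes were the maintenance DNA methyltransferase DNMT1, its partner UHRF1, the histone methyltransferase SUV39H2, the HP1 protein CBX3 and the NuRD subunit GATAD2A. DNMT1 had 20.1 ± 1.68 FPKM in Ctrl and 12.2 ± 1.08 FPKM in MIR21-KO, and UHRF1 had 30.5 ± 1.37 and 19.9 ± 0.489 FPKM (SD, n = 3). SUV39H2 fell by 0.81, GATAD2A by 0.68 and CBX3 by 0.37 on the log2 scale, with limma FDRs of 0.00091, 0.000884 and 0.00758. TRIM28 itself had 198 ± 9.60 FPKM in Ctrl and 149 ± 17.0 FPKM in MIR21-KO (SD, n = 3). Its log2 difference of -0.42 (SE 0.11) was not called (limma FDR 0.0253). SETDB1 had 6.10 ± 0.442 FPKM in Ctrl and 6.65 ± 0.490 FPKM in MIR21-KO (SD, n = 3), with a log2 difference of 0.12 (limma FDR 0.384). Of the 30 genes, 2 to 6 were called when a library was left out, with 3 without Ctrl replicate 1 or 2, and 2 without Ctrl replicate 3 or MIR21-KO replicate 2.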

How the data were processed

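PolyA RNA-seq libraries of A549 cells (3 Ctrl, 3 MIR21-KO) were grouped by their titles. The authors deposited FPKM values per gene and library with gene lengths, and their own log2 fold changes, p-values and FDRs, which were not used. The submitters' processing notes name cutadapt 1.14, HISAT2 2.1.0, SAMtools 1.5, featureCounts 1.5.3, edgeR 3.18.1 and hg38, without their order; annotation and strand setting are not given in the sources used here. All values were whole multiples of 1 read (tolerance 0.01 reads), so reads were recovered. The library sizes behind the FPKM were 0.950 to 1.03 times the recovered reads, so the authors had scaled them. All 37 mitochondrial genes are listed at 0, and a listed 0 may reflect processing.

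The 16006 genes averaging 0.5 FPKM or more were tested as log2(FPKM + 0.1) with limma 3.58.1 (R 4.3.3; trend, robust), adjusted by Benjamini-Hochberg, and called at an FDR under 0.01. The procedure was tested on simulated reads with the same dispersion for every gene and no trend on GC content. This test therefore does not cover the GC trend between the MIR21-KO libraries. Members, gene lists and alternatives were chosen with earlier results of these data known. Named were the called genes with the 8 largest rises and 8 largest falls without overlap, the 5 most abundant genes, role list genes, and genes next to 3 FPKM. C2H2 motifs (C-X2-4-C-X12-H-X3-5-H) and KRAB boxes (pyhmmer 0.12.3, E under 0.0001, profile of 302 windows from the annotation) were searched in translated GENCODE 29 transcripts. Lowess trends (span 0.3) on GC content and length were removed in an alternative. Figures were drawn with matplotlib 3.10.9.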

Additional observations from a re-analysis of the deposited data

How the results depend on the processing

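The median log2 difference of the 138 ZNF genes kept within 0.045 of its value of -0.01 (1 SD between libraries) under the settings of scaling, pseudocount, filter, test and single libraries that were tried. It moved to 0.036 for ZNF genes of at least 2 FPKM, to -0.074 when the Ctrl mean alone had to reach 3 FPKM, and to 0.045 when the MIR21-KO mean alone had to. The number of called genes was less stable. Pseudocounts of 1 and 0.01 FPKM and median-ratio scaling left the same 13 calls. Scaling by total reads called 10 of the 138 genes, that is 7.25% as against 17.0% of all genes tested. ZNF302, ZNF367, ZNF469 and ZNF710 were then lost and ZNF32 was gained. A filter at a mean of 3 FPKM called the 13 genes and ZNF32, that is 10.1% as against 23.6% of all genes in that fit. With no filter on low values, where more genes were tested, 6 of the 138 genes were called (6 higher, 0 lower) and 8 of all ZNF genes. These 6 are 4.35% of the 138 genes, as against 6.16% of all genes in that fit. Limma without trend and robust fitting called 7 (6 higher, 1 lower), that is 5.07% as against 12.2% of all genes tested. Restricted to protein-coding genes, 19 of the 138 genes were called (16 higher, 3 lower), that is 13.8% as against 27.8% of all genes in that fit. In the same fit, 47 of the wider ZNF genes were called. Voom on the recovered reads called 41 of the wider ZNF genes and 21.8% of all genes tested. Removal of the GC and length trends gave 28 calls (20 higher, 8 lower), with 3956 of all genes, 44 of the wider ZNF genes and 8 of the TRIM28 list. At an FDR under 0.05, 31 of the 138 genes (21 higher, 10 lower), 5114 of all genes, 63 of the wider ZNF genes and 11 of the TRIM28 list passed. With a level of 5 FPKM for the choice of genes, 7 of 72 ZNF genes were called (6 higher, 1 lower). With the Ctrl mean alone, 6 of 134 ZNF genes were called higher, and ZNF143, ZNF587B and ZNF146 were still called lower. In the same fit 16.0% of all genes tested were called, and shares of all genes chosen by these rules are not given here. Apart from the fewer genes that a stricter level leaves and the larger number of genes tested without a filter, the cause was not tested.

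Leaving out 1 library at a time gave 3 to 23 called genes among the 138 (3 to 18 higher, 0 to 5 lower), 784 to 3418 among all genes, 4 to 31 among the wider ZNF genes and 2 to 6 of the TRIM28 list. Whether the replicate numbers pair the libraries cannot be told from these values. Deviations of same-numbered libraries from their group means correlated at -0.17, -0.02 and -0.02, and those of other numbers at -0.13 to 0.16. No library correlated best with its own number. In groups of 3 libraries such deviations are tied to each other, so that they cannot exclude a pairing. With the replicate block, 3 of the 138 genes were called (3 higher, 0 lower), 651 of all genes, 4 of the wider ZNF genes and 0 of the TRIM28 list. With the block and the trends removed together, 10 of the 138 genes were called, 1 of them lower. This is 7.25%, as against 11.0% of all genes tested. No named gene changed its sign with a call under any setting. At these depths the 95% intervals of the 138 genes spanned a median of 0.31 to either side on the log2 scale, with 0.16 for the best and 0.58 for the least precisely measured gene.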
